A study of Mus musculus with 13 samples.

Results

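The genes described here are the 34 genes that carry pyruvate into the mitochondrion, convert it to acetyl-CoA or oxaloacetate, and run the citric acid cycle and its malic enzyme branch. They were chosen by gene symbol, from general knowledge and with earlier results of these data known, out of 55536 genes in the deposited count table. Of them 13 belong to pyruvate entry and 21 to the cycle. All 34 were found and all 34 passed the filter on low counts, which left 16125 genes to test. RNA was counted in nuclei of ventricles from C57BL/6J mice of both sexes, which had been injected once into the abdomen on postnatal day 1 with a vector of adeno-associated virus serotype 6 and were studied at postnatal day 56. The virus had no insert (control vector, labelled AAV_Con) or carried human PR, the progesterone receptor (PGR vector, labelled AAV_PGR), a hormone-dependent transcription factor. There were 4 groups: females with the control vector (Con_F, 4 libraries), males with it (Con_M, 3), males with the PGR vector (PGR_M, 3) and females with that vector (PGR_F, 3, carrying the numbers 1, 2 and 4). All mice of all groups had therefore received virus, and the sources used here do not name the promoter that drove the insert. Nuclei were sorted for Pcm1, a protein that marks cardiomyocyte nuclei, and each library pooled 3 to 6 whole ventricles.

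Pyruvate made by glycolysis or from lactate crosses the inner mitochondrial membrane through a carrier formed by the Mpc1 and Mpc2 proteins. The pyruvate dehydrogenase complex then turns it into acetyl-CoA, and kinases switch that complex off while phosphatases switch it back on. The cycle oxidises acetyl groups to carbon dioxide and yields reducing equivalents for the respiratory chain, and the adult heart also feeds it from fatty acids, ketone bodies and branched-chain amino acids.

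Total counts ran from 31.8 to 86.3 M per library. Each count covered the whole span of a gene, introns included, so the values hold unspliced as well as spliced nuclear RNA. Counts per M (CPM) were scaled between libraries with TMM factors. Markers of cardiomyocytes (8 genes) summed to 75605 to 94436 CPM in all 13 libraries, against 25.6 to 57.9 for endothelium (8 genes), 25.4 to 101 for fibroblasts (8), 31.1 to 54.9 for smooth muscle and pericytes (7) and 7.52 to 17.4 for macrophages (7), and no marker was at 0 in any library. Con_F 4 held counts of 4 Y-linked genes at 1.01% of the male mean, where the other female libraries held 0.0112% to 0.113%. The labels do not say whether libraries of a group came from separate litters or dissections, so p-values measure the spread between these pooled libraries. In such bulk samples, fewer cells of a type and less RNA per cell cannot be told apart.

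The 34 genes differed widely in level. Between genes, levels were compared as CPM per kilobase of counted gene span. The highest mean over the 13 libraries was that of Idh3b, a regulatory subunit of the NAD-dependent isocitrate dehydrogenase, at 15.7 (range 13.2 to 18.3), followed by Ogdh, the first subunit of the 2-oxoglutarate dehydrogenase complex, at 14.7 (12 to 17.5), and Idh2, the mitochondrial NADP-dependent isocitrate dehydrogenase, at 11 (9.40 to 13.2). Mpc1 was the highest of pyruvate entry at 10.4 (8.29 to 13.8). The lowest of all was Pcx, the pyruvate carboxylase that makes oxaloacetate, at 0.435 (0.354 to 0.510), and the lowest of the cycle was Suclg2, the GTP-forming subunit of succinyl-CoA ligase, at 0.888 (0.831 to 1.01). Most neighbours in this order had overlapping ranges over the 13 libraries. The exceptions were Pdhb above Idh3g, Pdha1 above Suclg1, and Suclg2 above Pcx. Suclg2 and Pcx have long spans, so a low value per kilobase does not mean few reads: Suclg2 had 7038 to 17770 counts per library and Pcx 1675 to 4686. The lowest count of any member in any library was 289, for Pdp2.

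**Figure D1:**
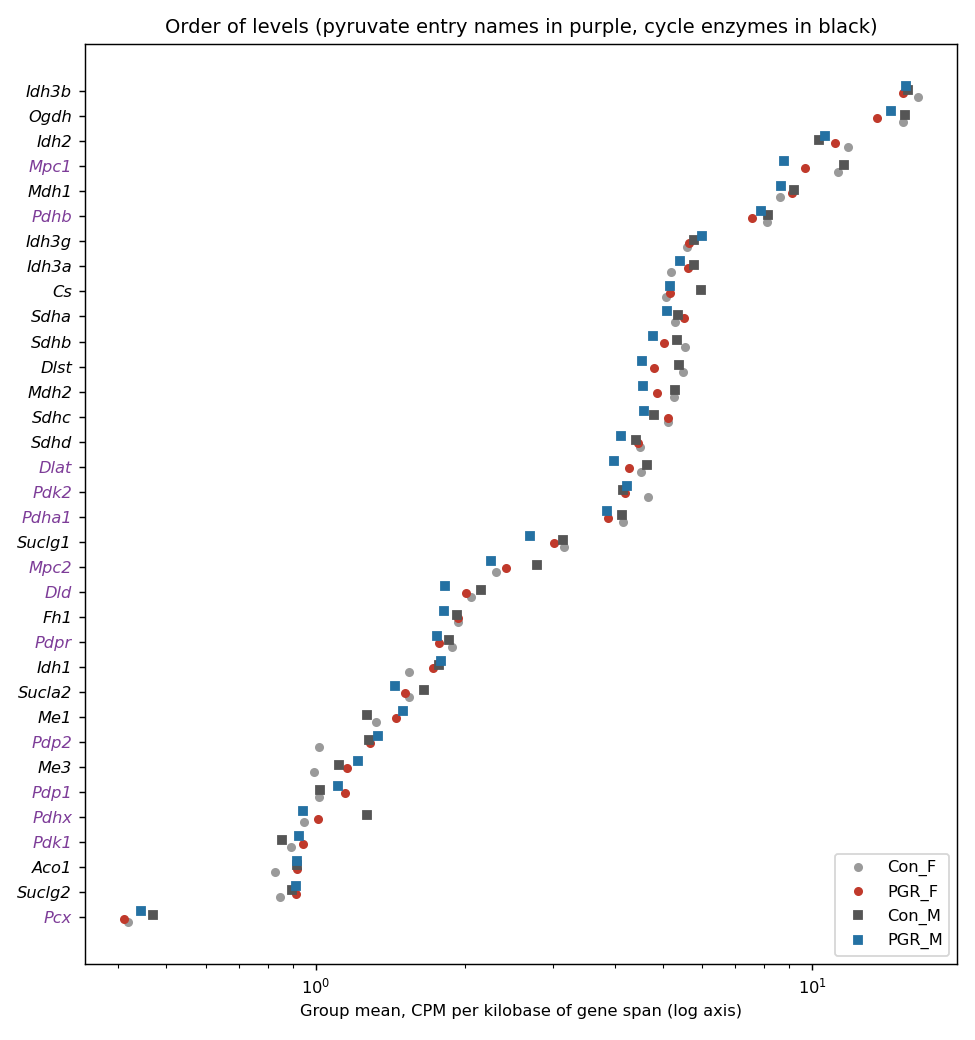
The group mean of each of the 34 genes in CPM per kilobase of gene span (log axis), with 1 point per group and genes ordered by their mean over 13 libraries. Idh3b, Ogdh and Idh2 lead, Pcx is lowest at 0.435, and the 4 group means of a gene lie close together compared with the distance from Idh3b to Pcx.

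Levels per kilobase were also compared between subunits of 1 complex, and between enzymes of like function in the mitochondrion and the cytosol. Mpc1 stood at 3.43 to 6.19 times Mpc2. Pdhx, the subunit that anchors dihydrolipoamide dehydrogenase, stood at 0.191 to 0.279 times Dlat, the acetyltransferase core next to it. Idh3b stood at 2.44 to 3.74 times the catalytic Idh3a, while Idh3g was close to Idh3a, at 0.846 to 1.23 times its level. Ogdh stood at 2.56 to 3.56 times Dlst, its acyltransferase partner. Sucla2, the ATP-forming subunit of succinyl-CoA ligase, stood at 1.5 to 2.08 times Suclg2. The mitochondrial Idh2 stood at 5.06 to 10.3 times the cytosolic Idh1, and the cytosolic malate dehydrogenase Mdh1 at 1.5 to 2.13 times the mitochondrial Mdh2. Because introns are part of both the counts and the spans, these ratios describe nuclear RNA over gene spans and not the stoichiometry of mature mRNA or protein.

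The promoters of Mpc1, Mpc2 and Pdhx are shown because these 3 genes of pyruvate entry gave the lowest log2 fold changes of all members between the male groups. Each run is the RefSeq sequence (GRCm38.p6) from 250 bases before to 50 after a RefSeq start of the gene, read on the gene's own strand. Capitals mark the CCAAT box (CCAAT, or ATTGG on the other strand). The RefSeq start lay 883 bases inside the counted span for Mpc1 and 623 inside it for Mpc2. For Pdhx it lay at the start of the span. Mpc1 lies at chr17:8283537-8283836 on the plus strand, Mpc2 at chr1:165461010-165461309 on the plus strand and Pdhx at chr2:103073464-103073763 on the minus strand.
Mpc1: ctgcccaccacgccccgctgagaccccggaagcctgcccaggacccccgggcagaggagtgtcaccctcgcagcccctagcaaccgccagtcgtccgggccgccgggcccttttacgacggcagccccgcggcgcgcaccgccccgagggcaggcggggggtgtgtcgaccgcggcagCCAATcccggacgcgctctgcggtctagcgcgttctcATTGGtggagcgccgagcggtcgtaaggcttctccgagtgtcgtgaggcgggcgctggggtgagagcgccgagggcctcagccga
Mpc2: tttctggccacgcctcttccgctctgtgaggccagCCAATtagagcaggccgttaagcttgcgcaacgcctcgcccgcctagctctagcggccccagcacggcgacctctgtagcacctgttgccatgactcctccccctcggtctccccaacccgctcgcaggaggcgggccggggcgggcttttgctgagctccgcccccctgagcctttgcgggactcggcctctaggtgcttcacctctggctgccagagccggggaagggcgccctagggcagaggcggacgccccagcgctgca
Pdhx: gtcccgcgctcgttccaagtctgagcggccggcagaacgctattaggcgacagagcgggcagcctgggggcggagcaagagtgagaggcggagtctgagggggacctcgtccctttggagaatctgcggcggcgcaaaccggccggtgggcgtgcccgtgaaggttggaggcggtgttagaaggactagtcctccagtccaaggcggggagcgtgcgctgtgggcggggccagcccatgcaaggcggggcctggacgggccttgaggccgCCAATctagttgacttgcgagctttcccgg
These windows held 2, 1 and 1 CCAAT boxes. Of the 34 members 31 had a promoter in the RefSeq table, and 18 of those (58.1%) held CCAAT on either strand, against 37.4% of 32851 mouse promoters of the same length. The GC box GGGCGG was in 23 of the 31 (74.2%), against 35.7%. The printed windows of Mpc1, Mpc2 and Pdhx were 73.7%, 68.7% and 67.3% G and C, and the shares were not matched for such content. TGTTCT, the half-site of the progesterone and glucocorticoid response element, was in 3 of the 31 (9.68%: Aco1, Suclg1 and Sucla2), against 19% of all promoters. The RefSeq start lay within 100 bases of the counted span's start in 22 of the 31, and 27467 bases from it in Sucla2. AAGGTCA, as bound by estrogen-related receptors, was in Sdhd alone (3.23%, against 4.72%), and GCATGCG, the core of the NRF1 site, was in Pdhb and Sdhb (6.45%, against 3.58%). All 5 motifs were searched on both strands as exact letters, and no motif contains another. The last 3 of these motifs had no match in any of the 3 printed windows. A match is a description of letters only, and the windows cover none of the regions farther away.

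The 2 carrier genes did not show the same pattern over the groups. Mpc1 (ENSMUSG00000023861, GRCm38 chromosome 17, 8282904 to 8297661, plus strand) had 200, 191, 145 and 131 CPM in Con_F 1 to 4, 204, 175 and 133 in Con_M 1 to 3, 158, 148 and 122 in PGR_F 1, 2 and 4, with 126, 127 and 135 in PGR_M 1 to 3. The control libraries of both sexes were widely spread. PGR_F 4, PGR_M 1 and PGR_M 2 lay below every control library, and the other PGR libraries lay within the control range. Mpc2 (ENSMUSG00000026568, chromosome 1, 165460637 to 165481214, plus strand) had 44.9, 53.7, 46.8 and 44.4 CPM in Con_F, 59.2, 59.3 and 54.1 in Con_M, 46.7, 56.2 and 46.3 in PGR_F, with 46.3, 44.1 and 48.7 in PGR_M. Its 3 Con_M libraries and PGR_F 2 were the 4 highest of 13, and the PGR_M libraries lay wholly below Con_M. The span of Mpc1 is overlapped on the opposite strand by 4930506C21Rik over 29.1% of its length, a gene with 1144 counts in all 13 libraries together.

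Among the 5 subunits of the dehydrogenase complex, Pdhx had the largest difference between Con_M and PGR_M. Pdhx (ENSMUSG00000010914, chromosome 2, 103021075 to 103073513, minus strand) had 51.6, 56.5, 43.3 and 46.9 CPM in Con_F, 70.1, 69.3 and 60.1 in Con_M, 47.8, 65.1 and 46.4 in PGR_F, with 47.3, 47.6 and 53.4 in PGR_M. As for Mpc2, Con_M and PGR_F 2 held the 4 highest libraries, and Con_M overlapped neither Con_F nor PGR_M. Dlat (ENSMUSG00000000168, chromosome 9) had 116, 127, 109 and 103 CPM in Con_F, 121, 121 and 110 in Con_M, 106, 117 and 99.5 in PGR_F, with 102, 95.2 and 105 in PGR_M. Dld (ENSMUSG00000020664, chromosome 12), the dehydrogenase shared with the 2-oxoglutarate and branched-chain complexes, had 41.4, 46.0, 43.0 and 35.5 CPM in Con_F, 46.5, 44.4 and 39.4 in Con_M, 42.8, 42.8 and 36.0 in PGR_F, with 36.3, 36.6 and 37.3 in PGR_M. For both genes the PGR_M libraries lay below all Con_M libraries but inside or beside the lower end of the female values. The pyruvate-oxidising subunits Pdha1 and Pdhb had closer group means, of 62.5 to 67.4 and 53.2 to 57.2 CPM. Relative to Dlat, Pdhx stood at 0.263 to 0.279 per kilobase in Con_M, against 0.191 to 0.219 in Con_F, 0.216 to 0.268 in PGR_F and 0.223 to 0.245 in PGR_M.

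**Figure D2:**
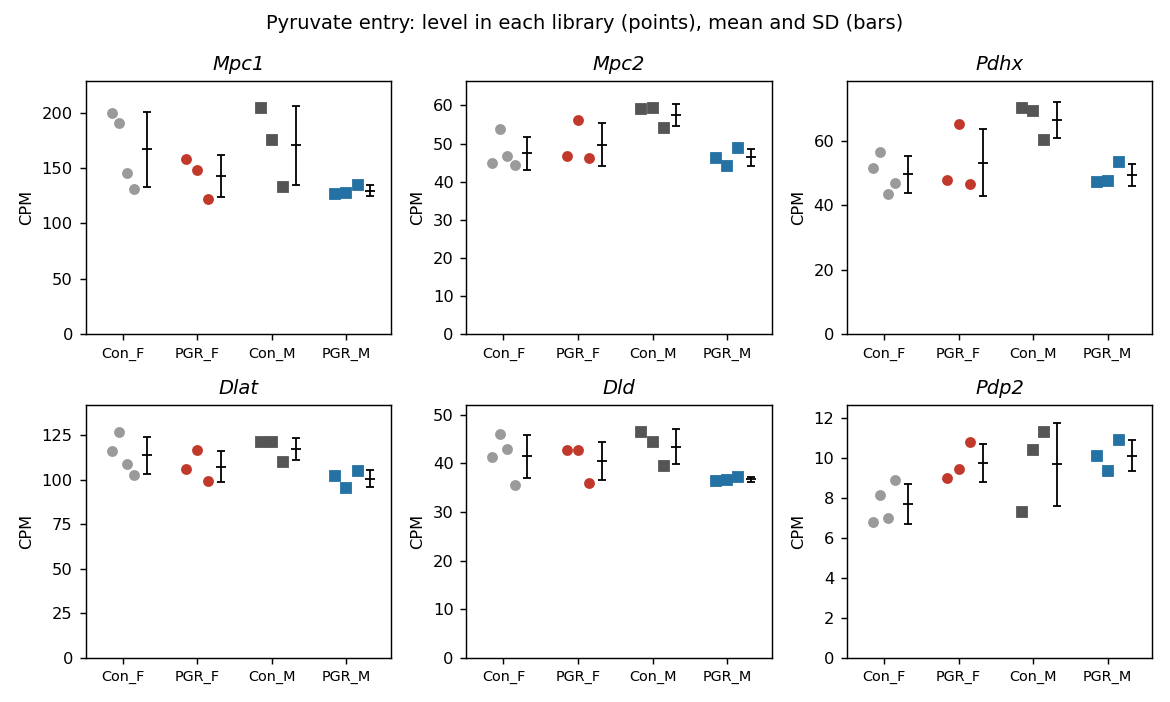
CPM in each library for 6 genes of pyruvate entry, with points for libraries and bars for the mean and SD of each group (n = 4 in Con_F, 3 in the others). In Mpc2 and Pdhx the 3 Con_M libraries lie above all PGR_M libraries and above all Con_F libraries, and PGR_F 2 stands apart from the other PGR_F libraries.

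The enzymes that regulate the complex had differences in both directions. Pdp2, a phosphatase that reactivates the complex (ENSMUSG00000048371, chromosome 8), had 6.77, 8.12, 7.01 and 8.88 CPM in Con_F, 7.30, 10.4 and 11.3 in Con_M, 9.01, 9.42 and 10.8 in PGR_F, with 10.1, 9.32 and 10.9 in PGR_M. All PGR_F libraries lay above all Con_F libraries, with the narrowest gap between Con_F 4 and PGR_F 1, and the Con_M libraries spanned nearly the whole range. The other phosphatase, Pdp1, had group means of 8.41 to 9.46 CPM, and Pdpr, the regulatory subunit of the phosphatase, 74.4 to 79.8. The kinases Pdk1 and Pdk2 had group means of 26.2 to 28.8 and 62.8 to 70.4 CPM. Pcx (ENSMUSG00000024892, chromosome 19) had 49.4, 41.1, 45.8 and 50.2 CPM in Con_F, 54.6, 47.7 and 54.7 in Con_M, 55.8, 39.4 and 42.3 in PGR_F, with 49.0, 56.7 and 42.4 in PGR_M, and all 4 groups overlapped. The span of Pdpr is overlapped on the other strand by 9430091E24Rik over 19.3% of its length, a gene with 17556 counts in all.

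At the head of the cycle, control males and females did not overlap in Cs, Idh1, Idh3a and Idh2, and not all in the same direction. Cs, the citrate synthase that joins acetyl-CoA to oxaloacetate (ENSMUSG00000005683, chromosome 10), had 114, 127, 137 and 125 CPM in Con_F, 138, 153 and 151 in Con_M, 115, 143 and 126 in PGR_F, with 130, 116 and 138 in PGR_M. Idh1, which makes NADPH in the cytosol (ENSMUSG00000025950, chromosome 1), had 35.8, 45.8, 45.7 and 44.9 CPM in Con_F, 48.8, 50.7 and 48.9 in Con_M, 49.9, 46.8 and 47.7 in PGR_F, with 51.8, 50.4 and 47.8 in PGR_M. In Cs, Idh1 and Idh3a all Con_F libraries lay below all Con_M libraries, against 4.94% of all genes. In Idh2 they lay above all Con_M libraries, against 6.41%. The Con_F libraries of Idh1 lay below all libraries of the other 3 groups. Idh3b (ENSMUSG00000027406, chromosome 2) had 95.7, 79.6, 81.5 and 85.3 CPM in Con_F, 80.4, 77.7 and 87.2 in Con_M, 69.1, 90.9 and 79.1 in PGR_F, with 78.9, 81.1 and 82.7 in PGR_M, with all groups overlapping. Aco1, the cytosolic aconitase that also acts as an iron-responsive RNA-binding protein, had group means of 45.8 to 50.7 CPM, Idh2 212 to 243, Idh3a 95.3 to 106 and Idh3g 44.3 to 47.7.

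In the middle of the cycle, the PGR libraries of Dlst lay in the lower part of the range in both sexes. Dlst (ENSMUSG00000004789, chromosome 12, 85110833 to 85134845, plus strand) had 146, 138, 132 and 112 CPM in Con_F, 137, 134 and 117 in Con_M, 114, 124 and 108 in PGR_F, with 110, 99.9 and 117 in PGR_M. Within each sex the control and PGR libraries overlapped only through the lowest control library, Con_F 4 in females and Con_M 3 in males. Suclg2 (ENSMUSG00000061838, chromosome 6) had 206, 204, 206 and 218 CPM in Con_F, 207, 234 and 219 in Con_M, 248, 214 and 211 in PGR_F, with 214, 227 and 231 in PGR_M, with all groups overlapping. Ogdh, the most abundant member by CPM, had group means of 879 to 1002 CPM. Of the other ligase subunits, Suclg1 had group means of 77.1 to 90.2 CPM and Sucla2 102 to 117.

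Among the last steps, Sdhb and Mdh2 stood lowest in PGR_M. Sdhb, the iron-sulfur subunit of succinate dehydrogenase (ENSMUSG00000009863, chromosome 4), had 115, 94.0, 97.0 and 93.6 CPM in Con_F, 98.9, 93.8 and 95.6 in Con_M, 84.0, 99.5 and 88.1 in PGR_F, with 91.4, 81.3 and 85.1 in PGR_M. Mdh2 (ENSMUSG00000019179, chromosome 5) had 66.4, 62.1, 61.9 and 60.5 CPM in Con_F, 64.9, 64.3 and 60.4 in Con_M, 49.1, 67.6 and 57.3 in PGR_F, with 54.3, 53.8 and 54.7 in PGR_M. In both genes PGR_M lay wholly below Con_M, and PGR_F 2 stood with the controls while PGR_F 1 was the lowest female library. The other succinate dehydrogenase subunits had group means of 143 to 154 CPM (Sdha), 107 to 120 (Sdhc) and 30.7 to 33.6 (Sdhd), the fumarase Fh1 45.7 to 49.0, and Mdh1 134 to 143. Me3, a mitochondrial malic enzyme that makes pyruvate from malate (ENSMUSG00000030621, chromosome 7), had 203, 212, 199 and 269 CPM in Con_F, 244, 245 and 254 in Con_M, 255, 284 and 230 in PGR_F, with 258, 267 and 286 in PGR_M. Its lowest 3 libraries were Con_F 1, 2 and 3, and PGR_M lay wholly above Con_M. The cytosolic malic enzyme Me1 had group means of 145 to 172 CPM with an SD of 21.5 to 45.7. The span of Mdh1 is overlapped on the other strand by Wdpcp over 0.854% of its length, a gene with 26485 counts in all.

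**Figure D3:**
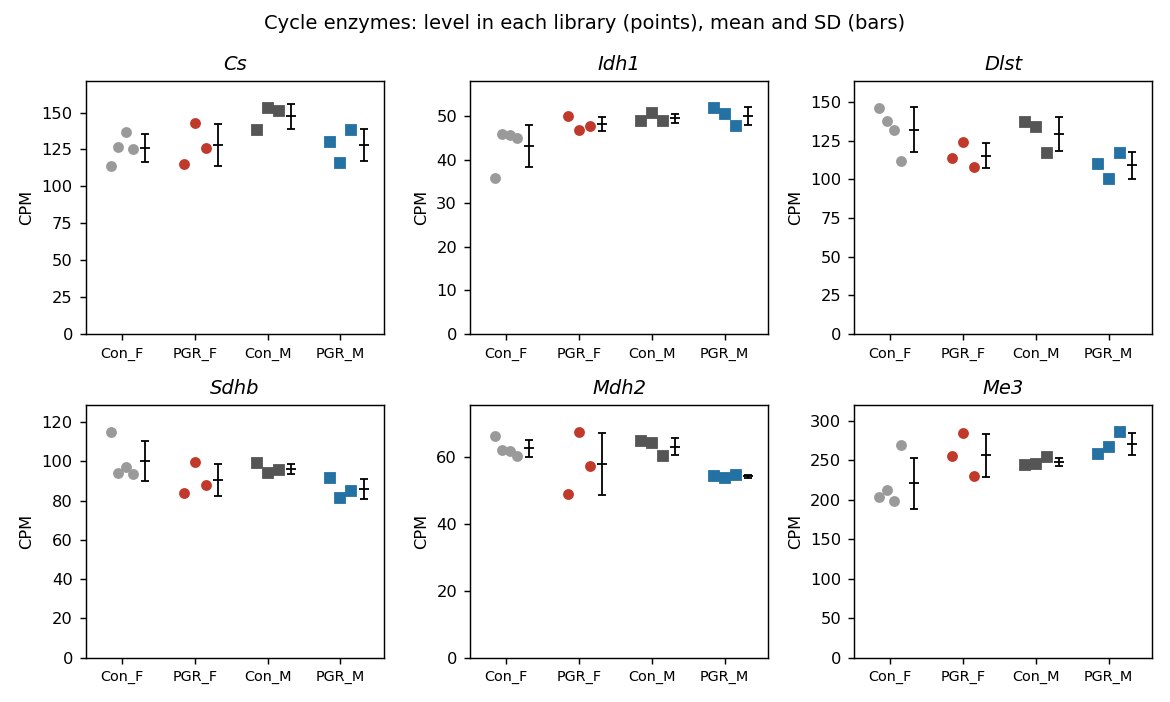
CPM in each library for 6 genes of the cycle, with points for libraries and bars for the mean and SD of each group (n = 4 in Con_F, 3 in the others). Dlst, Sdhb and Mdh2 have their lowest group mean in PGR_M, Idh1 and Me3 in Con_F, and in Idh1 a single low library, Con_F 1, sits at 35.8 CPM.

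The first question was what the PGR vector changed in males. Pyruvate entry as a whole had 9 of 13 log2 fold changes (PGR_M over Con_M) below 0, with a median of -0.08. Of all genes tested, 49.9% were below 0. Within pyruvate entry, the 7 genes of the carrier and the dehydrogenase complex were all below 0, with a median of -0.24. Above 0 were 4 of the 5 kinase and phosphatase genes, while Pcx stood at -0.08. This finer split was made with earlier results of these data known and is no test. The lowest were Pdhx at -0.43 (SE 0.13, edgeR adjusted p = 0.602), Mpc1 at -0.40 (SE 0.17, adjusted p = 0.629) and Mpc2 at -0.31 (SE 0.09, adjusted p = 0.602), so none passed the adjusted threshold of 0.05. In the cycle 15 of 21 were below 0 with a median of -0.08, and Dlst (-0.25, SE 0.10) and Mdh2 (-0.22, SE 0.10) had an unadjusted p under 0.05. Over all 34 members the median was -0.08 with 24 below 0, against a median of 0.00 over all 16125 genes tested. No member passed with adjustment, and neither did any gene in edgeR (0%) or limma-voom, while DESeq2 called 29 genes and no member. At an unadjusted p under 0.05 there were 7 members, all below 0 (Mpc1, Mpc2, Pdhx, Dlat at -0.22, Dld at -0.24, Dlst and Mdh2), where 7.48% of all genes had such a p in either direction. The PGR_M libraries lay wholly below Con_M in 7 members (Cs, Dlat, Dld, Mdh2, Mpc2, Pdhx and Sdhb), against 8.48% of all genes, and wholly above in 2 (Me3 and Pdk1), against 7.2%. The count of 7 at an unadjusted p became 3 without Con_M 1, 2 without Con_M 2, 4 without PGR_M 1, 2 without PGR_M 2 and 11 when only the 2 male groups were fitted, and the value of Mpc1 became -0.25 without Con_M 1. Cardiomyocyte markers had a median of -0.10 in the same contrast, with 5 of 8 below 0 (summed level 81585 to 90443 CPM in Con_M and 80918 to 94436 in PGR_M). Markers of other cell types lay the other way. Above 0 were 8 of 8 endothelial markers (median 0.26, summed level 25.6 to 45.2 CPM in Con_M and 27.9 to 50.5 in PGR_M), 7 of 8 fibroblast markers (0.16, 25.4 to 55.2 and 31.1 to 76.0 CPM), 5 of 7 smooth muscle and pericyte markers (0.19, 31.1 to 41.8 and 34 to 44.1 CPM) and 6 of 7 macrophage markers (0.33, 7.52 to 12.6 and 9.64 to 15.5 CPM). Their part in the result was not tested.

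The same comparison was made in females, and whether the sexes differed was tested separately as an interaction. Between PGR_F and Con_F the carrier and complex genes had a median log2 fold change of -0.08, with 5 of 7 below 0, and the cycle genes a median of 0.00, with 10 of 21 below 0. Pyruvate entry as a whole had a median of -0.04, with 8 of 13 below 0, beside 49.3% of all genes tested. Pdp2 was the 1 member with an unadjusted p under 0.05, at 0.35 (SE 0.14, edgeR adjusted p = 0.402), where 10.9% of all genes had such a p. No member and no gene passed with adjustment in edgeR (0%) or limma-voom, and DESeq2 called 81 genes and no member. The PGR_F libraries lay wholly above Con_F in Idh1 and Pdp2 (4.17% of all genes) and wholly below in no member (4.07%). The lowest value was that of Mpc1 at -0.22 (SE 0.16), and Dlst stood at -0.20 (SE 0.10). Cardiomyocyte markers had a median of -0.11, with 6 of 8 below 0 (summed level 79810 to 91032 CPM in Con_F and 75605 to 82503 in PGR_F). Endothelial markers were below 0 in 8 of 8 (median -0.18, 47.3 to 56.1 and 33.7 to 57.9 CPM), fibroblast markers in 5 of 8 (-0.07, 64.5 to 101 and 49.8 to 92.6 CPM), smooth muscle and pericyte markers in 5 of 7 (-0.05, 38.7 to 47.3 and 32.7 to 54.9 CPM) and macrophage markers in 3 of 7 (median 0.14, 11.5 to 16.8 and 12 to 17.4 CPM). Their part in the result was not tested.

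Averaged over the sexes, pyruvate entry as a whole was below 0 in 10 of 13, with a median of -0.08, beside 49.0% of all genes tested. The cycle was below 0 in 13 of 21, with a median of -0.03. Within pyruvate entry, the carrier and complex genes were below 0 in 7 of 7, with a median of -0.14. The member with the smallest p was Dlst at -0.22 (SE 0.07, edgeR adjusted p = 0.190), and Mpc1 stood at -0.31 (SE 0.12, adjusted p = 0.253). Mdh2 (-0.17, SE 0.07), Sdhb (-0.15, SE 0.06) and Dlat (-0.15, SE 0.06) were also below 0 at an unadjusted p under 0.05, and Me3 was above it (0.17, SE 0.08). These 6 of 34 stand beside 14.8% of all genes at an unadjusted p under 0.05. With adjustment 0 members passed, where 1 gene in all did (0.0062%). The count of 6 became 10 without Con_F 4, 2 without Con_M 1, 11 without Con_M 3 and 3 without PGR_M 2. Without Con_F 4, the library with Y-linked counts, the smallest adjusted p of a member was 0.0523, for Dlst. Cardiomyocyte markers had a median of -0.13 here, with 6 of 8 below 0, while macrophage markers were above 0 in 7 of 7 (median 0.16), endothelial in 5 of 8 (0.03), fibroblast in 5 of 8 (0.05) and smooth muscle and pericyte markers in 5 of 7 (0.03). Their part in the result was not tested. This comparison is the mean of both vector effects and shares their libraries, so it does not add independent evidence to them.

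**Figure D4:**
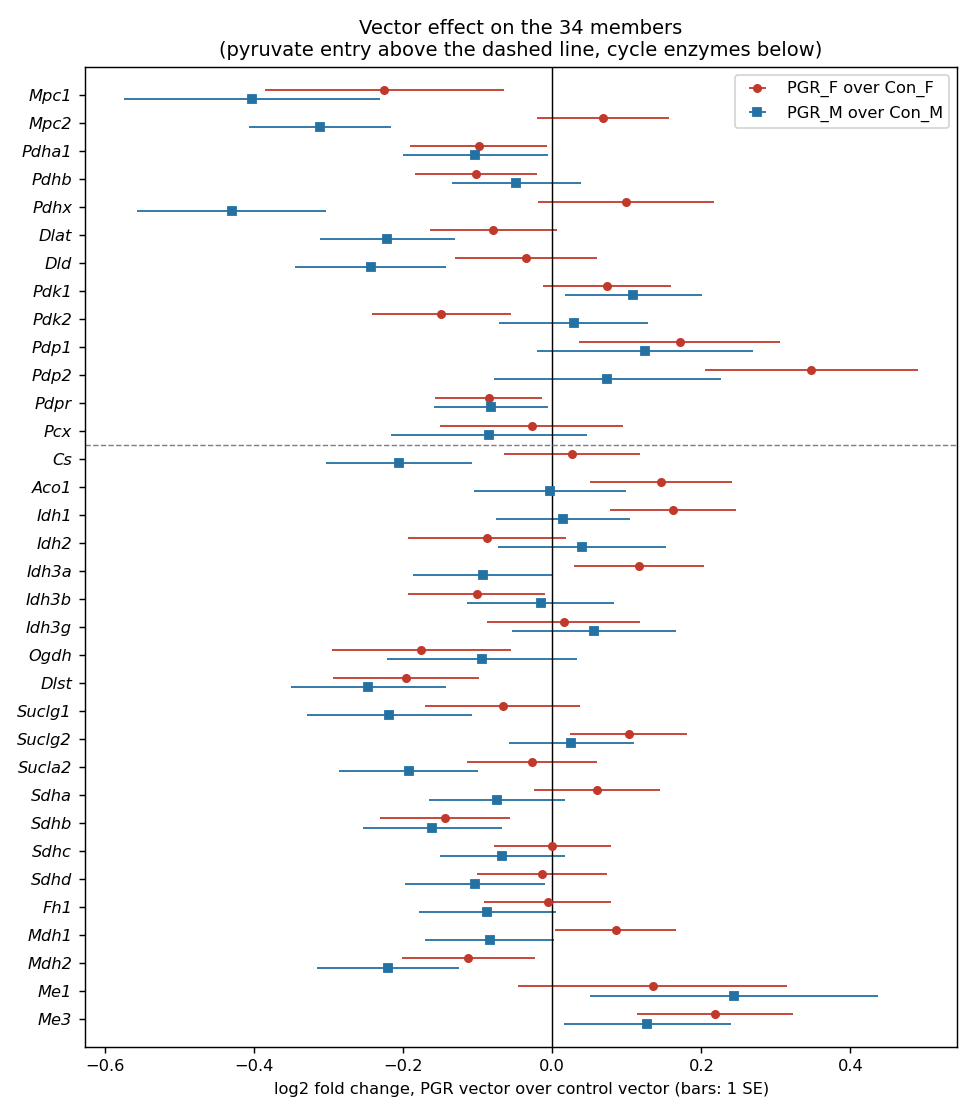
The log2 fold change of PGR vector over control vector for all 34 genes, in females (circles) and males (squares), with bars of 1 SE. In males 9 of the 13 genes of pyruvate entry lie below 0, among them all 7 carrier and complex genes, from Mpc1 to Dld. Mpc2 and Pdhx lie on opposite sides of 0 in the sexes, as do other members such as Cs, Idh3a and Idh2.

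Whether the vector effect differed between the sexes was tested as an interaction, female minus male. Pdhx stood at 0.53 (SE 0.17) and Mpc2 at 0.38 (SE 0.13), and both had an edgeR adjusted p of 1.00. They were the 2 members at an unadjusted p under 0.05, beside 3.26% of all genes, and no member or other gene passed with adjustment in edgeR (0%), where DESeq2 called 1 gene that was no member. Over the 34 members 25 were above 0, with a median of 0.09, beside 51.0% of all genes tested and a median of 0.005. The value of Pdhx became 0.36 without PGR_F 2, the female library in which Pdhx and Mpc2 were highest among those given the PGR vector. The interaction is the difference of the 2 vector effects and shares their libraries, Con_M among them, so it does not add independent evidence to them. In this contrast 8 of 8 endothelial (median -0.44), 6 of 8 fibroblast (-0.30), 5 of 7 smooth muscle and pericyte (-0.16), 5 of 7 macrophage (-0.36) and 5 of 8 cardiomyocyte markers (-0.11) were below 0. Their part was not tested.

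Under the control vector, Con_F was compared with Con_M. Pdhx (-0.42, SE 0.12, edgeR adjusted p = 0.181), Mpc2 (-0.28, SE 0.09, adjusted p = 0.232), Pdp2 (-0.32, SE 0.14), Cs (-0.23, SE 0.09) and Idh1 (-0.20, SE 0.08) had an unadjusted p under 0.05 and all 5 were below 0, that is lower in females. At that level stood 12.4% of all genes, and with adjustment 0 members passed, beside 0.229% of all genes. Libraries of Con_F lay wholly below Con_M in 5 members (Cs, Idh1, Idh3a, Mpc2 and Pdhx), against 4.94% of all genes, and wholly above in Idh2, against 6.41%. The members as a whole had a median of -0.02, with 21 of 34 below 0. The count of 5 became 2 without Con_F 1, 2 without Con_M 2, 3 without Con_M 3 and 3 when only the 2 control groups were fitted. Pdp2 became -0.20 without Con_M 3 and -0.50 without Con_M 1, and Idh1 became -0.12 without Con_F 1. Markers of other cell types were higher in Con_F, with 8 of 8 endothelial (median 0.52), 8 of 8 fibroblast (0.85; summed level 64.5 to 101 CPM against 25.4 to 55.2), 6 of 7 smooth muscle and pericyte (0.19) and 6 of 7 macrophage markers (0.49) above 0, while cardiomyocyte markers had a median of 0.01, with 5 of 8 above 0. Their part was not tested. The male vector effect uses the same 3 Con_M libraries, so the low values of Pdhx and Mpc2 in both comparisons are not independent of each other.

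Under the PGR vector, PGR_F was compared with PGR_M. None of the 34 members had an unadjusted p under 0.05, where 7.25% of all genes did, and with adjustment 0.143% of genes and no member passed. The log2 fold changes ran from -0.11 to 0.17 with a median of 0.05, beside a median of 0.01 over all genes tested. Female libraries lay wholly above male ones in Sdhc and Suclg1 (7.31% of all genes) and wholly below in no member (6.41%). Pdhx, at 53.1 ± 10.4 and 49.4 ± 3.44 CPM (mean ± SD, n = 3 each) in PGR_F and PGR_M, and Mpc2, at 49.7 ± 5.57 and 46.4 ± 2.30 CPM, differed by less than the spread of PGR_F. Fibroblast markers were above 0 in 8 of 8 (median 0.49), endothelial in 5 of 8 (0.14) and smooth muscle and pericyte markers in 4 of 7 (0.17). Macrophage markers were above 0 in 6 of 7 (median 0.07) and cardiomyocyte markers in 3 of 8 (median -0.05). The part of these lists was not tested.

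Other genes around pyruvate and the cycle were read from a list of 41, of which 40 were tested. Nnt, a mitochondrial transhydrogenase known to carry a deletion in C57BL/6J, was under the count filter. With adjustment 0 of the 40 passed in any of the 6 comparisons. At an unadjusted p under 0.05 there were 6 in females (5 above 0), 2 in males (1 above) and 7 averaged over the sexes (6 above). There was 1 in the interaction, with 5 for sex under the control vector (4 below 0) and 3 under the PGR vector (2 below). The shares of all genes were, in the same order, 10.9%, 7.48%, 14.8%, 3.26%, 12.4% and 7.25%. Bdh1, which oxidises the ketone body 3-hydroxybutyrate, had the smallest p of the list for the averaged vector effect, at -0.64 (SE 0.16, edgeR adjusted p = 0.127). It had 22.8, 14.3, 13.4 and 16.3 CPM in Con_F, 17.8, 29.9 and 26.3 in Con_M, 10.4, 11.9 and 9.82 in PGR_F, with 11.7, 16.2 and 19.2 in PGR_M. All PGR_F libraries lay below all Con_F libraries (4.07% of all genes), and PGR_M overlapped Con_M through Con_M 1. DESeq2 called Bdh1 for this effect (adjusted p = 0.00552).

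The kinase genes outside the 34 lay above 0. Averaged over the sexes, Pdk3 stood at 0.39 (SE 0.13, edgeR adjusted p = 0.191), at a level of 0.826 to 1.72 CPM. Pdk4, the kinase induced by fasting and fatty acids in heart, stood at 1.5 (SE 0.57, adjusted p = 0.280) and is named here after its values were seen. It had 23.2, 105, 54.3 and 205 CPM in Con_F, 59.6, 187 and 282 in Con_M, 193, 141 and 510 in PGR_F, with 464, 381 and 598 in PGR_M. Each PGR_M library lay above each Con_M library (7.2% of all genes), while the Con_F libraries alone ranged from 23.2 to 205. Its values were 1.54 (SE 0.77) in females and 1.45 (SE 0.84) in males.

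The other genes named were those of the list with the smallest p in each comparison, and no pathway among them was tested. In females the vector effect was 0.29 (SE 0.09, edgeR adjusted p = 0.326) for Mcee, the methylmalonyl-CoA epimerase, and 0.27 (SE 0.09) for Mut, the mutase of the next step. Dbt, the acyltransferase core of the branched-chain complex, had 30.4, 34.3, 29.2 and 35.2 CPM in Con_F, 38.6, 40.2 and 43.6 in Con_M, 36.2, 36.2 and 39.5 in PGR_F, with 33.2, 36.2 and 38.5 in PGR_M. Its Con_F libraries lay below those of both Con_M (4.94% of all genes) and PGR_F (4.17%), and PGR_M lay below Con_M (8.48%). Its female vector effect was 0.21 (SE 0.09), its interaction 0.39 (SE 0.12, adjusted p = 1.00) and its difference by sex under the control vector -0.34 (SE 0.09, adjusted p = 0.140), which DESeq2 called (adjusted p = 0.0306). Bckdha, the decarboxylase of the same complex, stood at 0.28 (SE 0.13) in males, and Slc25a13, the aspartate-glutamate carrier, at 0.18 (SE 0.07) averaged over the sexes. Under the control vector, Pck2, the mitochondrial phosphoenolpyruvate carboxykinase, was at 0.94 (SE 0.28) for females over males at a level of 0.311 to 0.957 CPM, Glud1, the glutamate dehydrogenase, at -0.29 (SE 0.10) and Bdh1 at -0.55 (SE 0.22). Under the PGR vector Bdh1 stood at -0.55 (SE 0.24), Pdk3 at 0.40 (SE 0.18) and Lipt1, a lipoyltransferase, at -0.42 (SE 0.19).

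**Figure D5:**
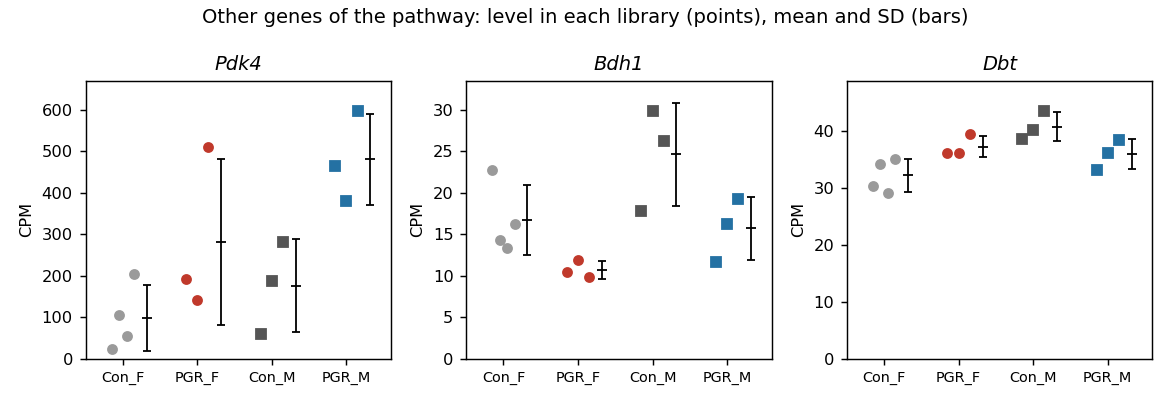
CPM in each library for Pdk4, Bdh1 and Dbt, with points for libraries and bars for the mean and SD of each group (n = 4 in Con_F, 3 in the others). Pdk4 spreads from 23.2 to 598 CPM, Bdh1 is lowest in PGR_F, and Dbt is lowest in Con_F.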

How the data were processed

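RNA was measured in 13 libraries of Pcm1-sorted ventricular nuclei, depleted of ribosomal RNA and prepared with a directional kit, per the labels' protocols. The authors deposited raw counts per gene, not normalised. STAR 2.5.3a, featureCounts 1.5.0 and the build GRCm38 appear in the submitters' processing notes with no role stated, and the sources used here do not say how reads of overlapping genes were assigned. The gene length, per the file headers, equalled the whole span from start to end in all genes. The smaller deposited table (15645 genes) held the same counts in 0 differing values and all 34 members.

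Counts were analysed with edgeR 4.0.16 (limma 3.58.1, R 4.3.3): filterByExpr with the 4 groups, TMM scaling, 4 group means fitted to all 13 libraries with a robust prior, quasi-likelihood tests of 6 contrasts and Benjamini-Hochberg adjustment over 16125 genes, with a threshold of 0.05. The script was tested on simulated data. Alternatives were RLE scaling, no count filter, the smaller table, DESeq2 1.42.0, limma-voom, the replicate number as a block, only the 2 groups compared, and leaving out each library. Members and lists were chosen with earlier results of these data known, and the motifs after values were seen. Values in every library are given for members with an unadjusted p under 0.05 in at least 1 comparison, or highest or lowest of pyruvate entry or cycle per kilobase. Of the 41 other genes, at most 4 with the smallest such p per comparison are named. Spans of 6 members are overlapped by another gene on the same strand, each with 0 counts, and 12 by a gene on the other strand.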

Additional observations from a re-analysis of the deposited data

Results flagged for a closer look

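In 4 of the 34 members a single Con_F library stood far from the other 3, by the gap to the nearest library divided by the range of the group. Only Con_F has enough libraries for this check, and chance gives about 1 in 20. The check was run on the 34 members only, so the share of all genes flagged in this way is not known. Idh1 was lowest in Con_F 1 (35.8 CPM against 44.9 to 45.8, gap 0.917 of the range). Idh3g was lowest in Con_F 2 (36.5 against 45.9 to 47.8, gap 0.832). Sdhb was highest in Con_F 1 (115 against 93.6 to 97.0, gap 0.842), and Suclg2 was highest in Con_F 4 (218 against 204 to 206, gap 0.849). Without Con_F 1, Idh1 stood at -0.12 for females over males under the control vector, and Sdhb at -0.11 for the averaged vector effect.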

How the results depend on the processing

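No member passed an adjusted p of 0.05 in any comparison under any alternative run. The 26 single-gene values that were refitted gave 509 pairs of value and alternative, of which 507 kept direction and side of the threshold. The other 2 were Bdh1 and Dbt, which DESeq2 called. The counts of genes called depended more on the setting. DESeq2 called 81 genes in females, 29 in males, 334 averaged, 1 in the interaction, 224 for sex under the control vector and 80 under the PGR vector, and without a count filter these were 25, 12, 146, 1, 131 and 51, against 0, 0, 1, 0, 37 and 23. Fitting only the 2 groups compared gave 1 gene in males, 17 for sex under the control vector and 56 under the PGR vector. Leaving out 1 library at a time gave 0 to 20 genes in females (20 without Con_F 4), 0 to 3 in males (3 without PGR_M 2), 1 to 338 averaged (338 without Con_F 4, 34 without PGR_F 4), 14 to 99 for sex under the control vector (14 without Con_F 2 or Con_F 3, 99 without Con_M 1, 92 without Con_F 4) and 10 to 44 under the PGR vector (10 without PGR_F 1, 44 without Con_F 4).

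Members at an unadjusted p under 0.05 in females were 1, and 2 with limma-voom, 3 without a count filter and 0 to 5 when 1 library was left out. In males they were 7, and 11 when only the male groups were fitted and 2 to 9 when 1 library was left out. Averaged they were 6, and 2 to 11. In the interaction they were 2, and 2 to 3. For sex under the control vector they were 5, and 3 when only the control groups were fitted and 2 to 6 when 1 library was left out, and under the PGR vector 0, and 0 to 2. The causes were not tested.

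With the replicate number as a block, genes called were 25 for sex under the control vector and 35 under the PGR vector, and members at an unadjusted p were 6 in males, 7 averaged and 1 for sex under the PGR vector. The labels do not say whether the numbers mark litters or days. Over 16 pairs of libraries with the same number in different groups, deviations correlated at -0.245 to 0.247. Their median was -0.018, and 3 of 16 were over 0.1. In 47 pairs with other numbers the range was -0.325 to 0.271 and the median -0.0119, with 11 over 0.1. A correlation over all tested genes cannot exclude pairing, least of all in single genes. With the block, Mpc1 in males stood at -0.38 (SE 0.12), against -0.40 (SE 0.17) without it. Each group had 3 or 4 libraries, which limits the precision of every value.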
